A study of Mus musculus with 6 samples.

Results

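Insulin-like growth factor (IGF) genes were followed in mouse embryonic stem cells that lacked DGCR8 or carried 1 of 2 forms of it. The set held 10 genes listed by symbol: the ligands Igf1 and Igf2, the receptors Igf1r, Igf2r and Insr, the adaptor Irs1, and the binding proteins Igfbp2, Igfbp3, Igfbp4 and Igfbp5. All 10 were found among the 21978 entries of the deposited tables. The list was drawn up with differences in these same libraries already known, so the differences of its members are given below as descriptions. Counts of members past the threshold of the fit over all genes are printed only beside the same share of all genes and support nothing.

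DGCR8 is the RNA-binding partner of the nuclease Drosha, and the pair cuts primary microRNA transcripts; E518K is a DGCR8 substitution seen in Wilms tumor of the kidney. Poly(A)-selected RNA was sequenced from 6 libraries. The knockout group (KO; genotype DGCR8 -/-, not transfected) had 2 libraries, numbered 1 and 3, whose titles both carry clone number 261 although the design text speaks of separate clones for each condition. The wild-type group (wt; genotype DGCR8 wt/wt) had clones 12 and 16, and the E518K group (genotype DGCR8 E518K/E518K) had clones 8 and 15. Both of these groups had been transfected with a vector for the matching Flag-tagged DGCR8 together with the SB100X transposase plasmid, so both differ from KO in transfection as well as in DGCR8. All 6 cultures, KO included, received 300 ng/mL doxycycline for 48 h. All were grown without feeder cells on gelatin, in medium with leukemia inhibitory factor, 10% FCS, 3 µM CHIR99021 (a GSK3 inhibitor) and 1 µM PD0325901 (a MEK inhibitor). The labels do not say whether the wt and E518K lines were made from the KO line.

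IGF1 and IGF2 signal through IGF1R and the insulin receptor INSR, tyrosine kinases that recruit adaptors such as IRS1 and activate the PI3K, AKT and mTOR pathway. IGF2R, an imprinted receptor that also carries mannose-6-phosphate-tagged lysosomal enzymes, takes IGF2 up for degradation. The binding proteins are secreted, hold IGFs outside the cell and are cut by proteases; IGF2 is known in Wilms tumor for loss of its imprinting.

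The libraries were alike in depth, with 73642784 to 75121971 assigned counts each. Dgcr8 itself stood at 39.95 and 37.06 CPM (the usual depth-scaled read count, with library sizes adjusted by edgeR's TMM factors) in KO 1 and KO 3, at 195 and 992 in wt 12 and wt 16, and at 820 and 420 in E518K 8 and E518K 15. The wt clones thus differed 5.08-fold in Dgcr8, and which part of the gene is deleted in KO is not given in the labels. The wt clones were also the more variable pair: the biological coefficient of variation over genes was 20.6% in wt, 9.19% in E518K and 2.6% in KO. Embryonic stem cell markers summed to between 5641 and 7490 CPM. Of them, Klf4 and Utf1 differed at least 2-fold between groups. Klf4 averaged 140 CPM in KO, 294 in wt and 193 in E518K, and Utf1 117, 166 and 243. Tfcp2l1 was instead highest in KO, at 830.5 CPM, with 725.8 in wt and 568.3 in E518K. The fibroblast list summed to 1678 to 2336 CPM, 99.7% of it from Fn1, and the primitive endoderm list to 2.36 to 4.35 CPM. Trophectoderm markers summed to 59.6 to 88.3 CPM, with Krt8 at 27.9 CPM in KO, 8.44 in wt and 11.5 in E518K. The other trophectoderm markers above 10 CPM that differed at least 2-fold were Eomes (14.1 CPM in KO, 27.1 in wt and 28.2 in E518K) and Tfap2c (39.8, 29.0 and 17.4 CPM). Of the scarcer ones, named after their values were seen, Krt18 averaged 1.32, 3.17 and 1.31 CPM in KO, wt and E518K, Gata3 0.233, 1.41 and 0.662 CPM, and Cdx2 1.98, 1.07 and 3.61 CPM. The mesoderm list summed to 3.93 to 8.29 CPM and the neural list to 52.3 to 76.5 CPM. Within them, also named after their values were seen, the mesoderm marker Kdr averaged 3.90 CPM in KO, 0.163 in wt and 1.17 in E518K, and the neural marker Pax6 2.67, 0.258 and 1.27 CPM. Mixl1, Twist1 and Tubb3 also had higher means in KO than in wt, but others of these lists had lower ones. The mesoderm marker T averaged 1.23, 1.73 and 2.58 CPM in KO, wt and E518K, and Tbx6 0.291, 0.506 and 0.414 CPM. The neural marker Sox1 averaged 2.06, 3.41 and 4.41 CPM, and Nes 8.63, 9.73 and 9.08 CPM. The part of these markers in the results below was not tested, and in bulk RNA fewer cells of a type and less RNA per cell cannot be told apart.

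The ligand genes were at low levels, and both were highest in the wt clones. Igf2 (chromosome 7, 142650766 to 142666816, minus strand; GRCm38 here and below), the fetal growth factor, had 151 and 166 counts in wt 12 and wt 16, or 2.08 and 2.24 CPM. KO 1 and KO 3 had 58 and 68 counts (0.750 and 0.881 CPM), and E518K 8 and E518K 15 had 60 and 43 (0.833 and 0.590 CPM). Both other groups lay entirely below wt, and the E518K and KO libraries overlapped. Igf2os on the opposite strand and Gm49394 on the same strand overlap the Igf2 span and have no entry of their own. Any of their reads held in the Igf2 counts cannot be told apart from those of Igf2. The fitted log2 difference of Igf2 was -1.41 ± 0.28 (SE, n = 2 libraries per group) for KO minus wt. It was -1.60 ± 0.28 for E518K minus wt and -0.20 ± 0.29 for E518K minus KO. Here and below, the spread behind each SE was estimated over all 3 groups together. The KO libraries of 1 clone number thus also enter the SE of E518K minus wt.

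Igf1 (chromosome 10, 87858265 to 87937042, plus strand), the ligand known for growth after birth, had 10 and 18 counts in wt 12 and wt 16. The counts were 4 and 5 in E518K 8 and E518K 15, and 2 in each KO library. The groups did not overlap, but these few reads did not pass the filter on low counts and no fold is given. The antisense gene Igf1os overlaps Igf1 and has no entry of its own, and the counts appear to have been made without regard to strand. Insulin itself was near 0: Ins1 had a mean of at most 0.00648 CPM and Ins2 of at most 0.0206 CPM in any group.

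**Figure D1:**
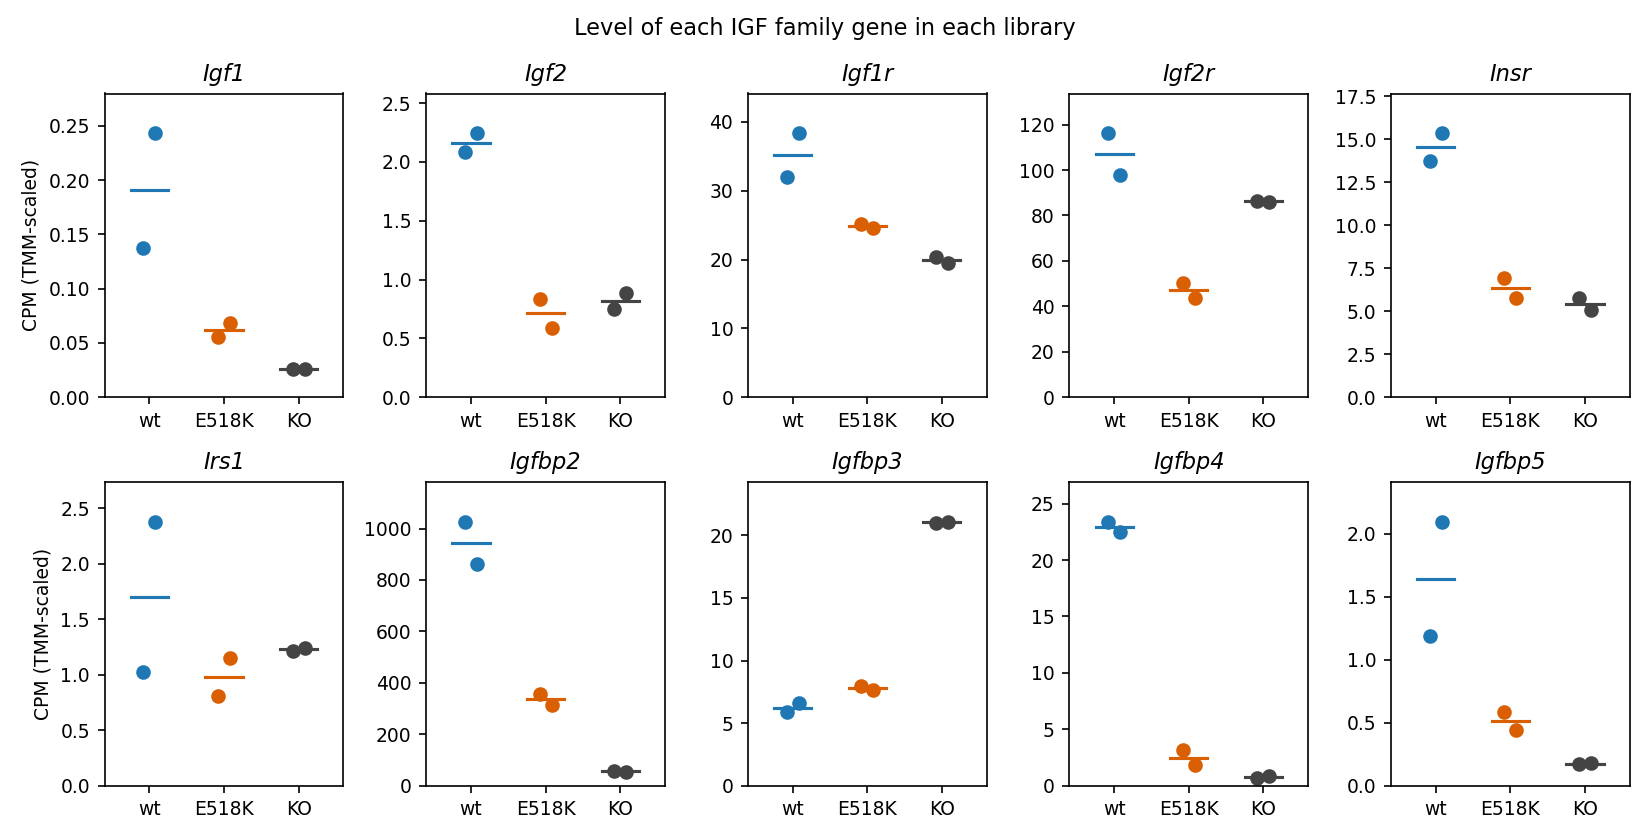
Level of each of the 10 genes in each library, in TMM-scaled CPM (each panel has its own linear axis from 0; points are the 2 libraries of a group, bars their mean). Igfbp2, Igfbp4 and Igfbp5 fall from wt through E518K to KO, Igfbp3 is highest in KO, Igf2r is lowest in E518K, and the wt clones of Irs1 lie far apart.

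The 3 receptor genes were lower than wt in both other groups, but in different orders. Igf1r (chromosome 7, 67952827 to 68233668, plus strand), the main signalling receptor, stood at 32.1 and 38.4 CPM in wt 12 and wt 16. It stood at 25.2 and 24.5 CPM in E518K 8 and E518K 15, and at 20.3 and 19.4 CPM in KO 1 and KO 3. The groups fell in the order wt, E518K, KO without overlap. The log2 difference of Igf1r was -0.83 ± 0.11 for KO minus wt, -0.50 ± 0.11 for E518K minus wt and 0.32 ± 0.11 for E518K minus KO.

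Insr (chromosome 8, 3122061 to 3279617, minus strand), the insulin receptor, stood at 13.7 and 15.3 CPM in wt 12 and wt 16. Its levels in E518K 8 and E518K 15 were 6.94 and 5.79 CPM, against 5.77 and 5.07 CPM in KO 1 and KO 3. Both other groups lay far below wt, and the lower E518K library was almost level with the higher KO library. The log2 difference of Insr was -1.42 ± 0.15 for KO minus wt, -1.19 ± 0.15 for E518K minus wt and 0.23 ± 0.15 for E518K minus KO.

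Igf2r (chromosome 17, 12682406 to 12769664, minus strand), the IGF2 clearance receptor, was the one member whose E518K libraries lay below every library of both other groups. It stood at 116 and 98.0 CPM in wt 12 and wt 16, 86.5 and 86.1 CPM in KO 1 and KO 3, and 50.3 and 43.7 CPM in E518K 8 and E518K 15. No library of one group reached another group. The log2 difference was -1.19 ± 0.10 for E518K minus wt and -0.88 ± 0.10 for E518K minus KO, and -0.31 ± 0.10 for KO minus wt. Within a library, the ratio of Igf2r to Igf1r counts was 4.26 and 4.43 in KO 1 and KO 3, 3.63 and 2.55 in wt 12 and wt 16, and 2.00 and 1.78 in E518K 8 and E518K 15. The antisense gene Airn, which overlaps Igf2r on the opposite strand, was not analysed here, and the counts appear to have been made without regard to strand.

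Irs1 (chromosome 1, 82233101 to 82291416, minus strand), which links the receptors to PI3K, showed no order of groups. It had 74 and 176 counts in wt 12 and wt 16 (1.02 and 2.38 CPM), 94 and 96 in KO 1 and KO 3 (1.22 and 1.24 CPM), and 58 and 84 in E518K 8 and E518K 15 (0.805 and 1.152 CPM). The wt clones differed 2.33-fold, and wt 12 lay below both KO libraries. The log2 difference was -0.47 ± 0.41 for KO minus wt, -0.80 ± 0.42 for E518K minus wt and -0.33 ± 0.42 for E518K minus KO. Gm9747, a gene model inside the Irs1 span on the opposite strand, had 44 and 46 counts in the KO libraries, 26 and 77 in the wt clones and 22 in each E518K clone. If strand was ignored in the counting, reads of the pair cannot be told apart in these counts.

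The binding proteins carried the widest differences. Igfbp2 (chromosome 1, 72824503 to 72852474, plus strand), a binding protein with a preference for IGF2, was the most abundant member and stood at 1027 and 863 CPM in wt 12 and wt 16. It stood at 358 and 314 CPM in E518K 8 and E518K 15 and at 58.2 and 53.6 CPM in KO 1 and KO 3. The groups were far apart, in the order wt, E518K, KO. The fit gave a 16.9-fold lower level in KO than in wt (log2 -4.08 ± 0.12) and a 2.81-fold lower level in E518K than in wt (log2 -1.49 ± 0.10). The E518K level was 6.01-fold above KO (log2 2.59 ± 0.11).

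Igfbp4 (chromosome 11, 99041244 to 99054392, plus strand), which mainly blocks IGF action, had the largest fold differences from wt of the 9 members tested. It had 1697 and 1660 counts in wt 12 and wt 16 (23.4 and 22.4 CPM), 225 and 135 in E518K 8 and E518K 15 (3.12 and 1.85 CPM) and 52 and 66 in KO 1 and KO 3 (0.672 and 0.855 CPM). The E518K clones lay between the other groups and nearer to KO. The level of Igfbp4 was 29.9-fold lower in KO than in wt (log2 -4.90 ± 0.28) and 9.21-fold lower in E518K than in wt (log2 -3.20 ± 0.25). It was 3.25-fold higher in E518K than in KO (log2 1.70 ± 0.27). Of the 16498 genes tested, 0.188% lay at least as far below wt in KO, and 0.133% at least as far below wt in E518K. For the other members below wt in KO this share was 0.449% for Igfbp2, 0.964% for Igfbp5, 6.95% for Insr and 7.12% for Igf2. It was 14.8% for Igf1r, 26.4% for Irs1 and 34% for Igf2r. Igfbp4 was listed with its difference in these libraries known, so its place among all genes only describes it.

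Igfbp5 (chromosome 1, 72857932 to 72874884, minus strand), a matrix-binding member whose gene lies tail to tail with Igfbp2, 5458 bases away, was scarce. It had 86 and 155 counts in wt 12 and wt 16 (1.19 and 2.10 CPM), 42 and 32 in E518K 8 and E518K 15 (0.583 and 0.439 CPM) and 13 and 14 in KO 1 and KO 3 (0.168 and 0.181 CPM). It kept the order wt, E518K, KO with no overlap, at a far lower level than its neighbour Igfbp2. The log2 difference of Igfbp5 was -3.22 ± 0.43 for KO minus wt, -1.68 ± 0.38 for E518K minus wt and 1.54 ± 0.44 for E518K minus KO.

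Igfbp3 (chromosome 11, 7206086 to 7213923, minus strand), the main IGF carrier of the blood, ran the other way. It stood at 21.02 and 21.10 CPM in KO 1 and KO 3, 5.86 and 6.61 CPM in wt 12 and wt 16, and 7.99 and 7.65 CPM in E518K 8 and E518K 15. The KO libraries lay far above all others, and the E518K clones lay just above the wt clones. KO was 3.38-fold above wt (log2 1.76 ± 0.12) and E518K was 2.69-fold below KO (log2 -1.43 ± 0.12). For E518K minus wt the log2 difference was 0.33 ± 0.12. Within a library, Igfbp3 counts were 36.1% and 39.3% of Igfbp2 counts in KO 1 and KO 3, 0.571% and 0.766% in wt 12 and wt 16, and 2.23% and 2.44% in E518K 8 and E518K 15. Igfbp2 made up 97.0% and 96.3% of the counts of IGFBP genes 1 to 7 in wt, 96.4% and 96.5% in E518K, and 71.4% and 69.7% in KO.

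**Figure D2:**
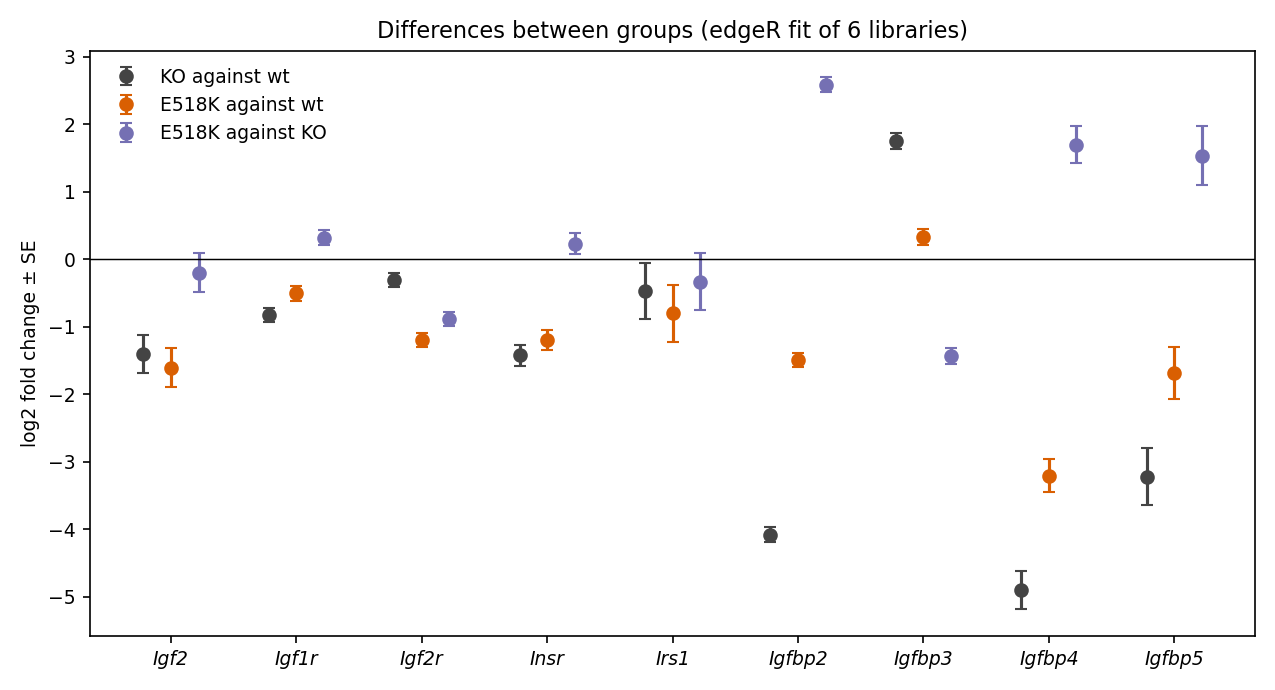
Fitted log2 differences of the 9 genes that passed the filter on low counts, with standard errors from 1 edgeR fit of 6 libraries (points; bars are ± SE; Igf1 is left out). The binding proteins reach from -4.90 for Igfbp4 to 1.76 for Igfbp3 in KO against wt, and the Igf2r points of both E518K comparisons lie below its KO against wt point.

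In all, 8 of the 9 members tested were called in KO against wt (adjusted p under 0.05 in edgeR's quasi-likelihood test over all genes), 1 higher and 7 lower. Of all genes tested, 57.2% were called in that comparison, 27.4% higher and 29.7% lower. In E518K against wt 7 members were called, all lower, where 23.7% of all genes were called (11.3% higher and 12.5% lower). In E518K against KO 6 were called, 4 higher and 2 lower, where 41.8% of all genes were called (22% higher and 19.8% lower). For 8 of the 9 members in each comparison no library of one group reached into the range of the other, beside 81.7% of all genes in KO against wt, 62% in E518K against wt and 80.5% in E518K against KO. Since the members were listed with these contrasts known, nothing is read from the counts. The median log2 difference of the 9 members was -1.41, -1.19 and 0.23 in the 3 comparisons, beside -0.03, -0.02 and -0.02 over all genes tested. The comparisons share libraries (wt enters 2 of them, as do KO and E518K), so their values are set side by side and not correlated.

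Several of these calls were lost with 1 library fewer in the fit, most of them with little change in the log2 difference. With all 6 libraries their edgeR adjusted p ran from 0.00437 (Igf2 in KO against wt) to 0.045 (Igf1r in E518K against KO). In KO against wt the call of Igf2 was lost without KO 1 (log2 -1.30), and that of Igf2r without KO 1, KO 3 or wt 12 (-0.32, -0.31 and -0.18). In E518K against wt the call of Igf2 was lost without E518K 15 (-1.36), and that of Igf1r without E518K 8 or E518K 15 (-0.52 and -0.47). The call of Igfbp5 there was lost without KO 1, KO 3, E518K 8 or E518K 15, with log2 values of -1.68, -1.68, -1.90 and -1.48. In E518K against KO, Igf1r and Igfbp5 were not called without any of the 4 libraries compared, left out in turn, with ranges of 0.29 to 0.36 and 1.32 to 1.75. Irs1 was called lower without wt 12 (-0.95 for KO and -1.28 for E518K, both against wt), and its KO minus wt value was 0.26 without wt 16. Igfbp3 was called higher in E518K than in wt without wt 16 (0.42). The calls of Igfbp2, Igfbp4 and Insr against wt, and those of Igf2r in both E518K comparisons, were kept with each library left out. With the KO libraries summed, the calls of Igf2r in KO against wt (log2 -0.31), Igfbp5 in E518K against wt (-1.68), and Igf1r and Igfbp5 in E518K against KO (0.32 and 1.54) were lost. With limma on log2(TPM + 1) those of Igf2r in KO against wt (-0.23), Igf1r and Igfbp5 in E518K against wt (-0.23 and -0.46) and Igf1r and Igfbp5 in E518K against KO (0.07 and 0.15) were lost. On log2(TPM + 0.1) the same calls were lost except that of Igfbp5 in E518K against wt. Upper-quartile factors and a minimum count of 50 each removed that of Igf1r in E518K against KO (0.33 and 0.30).

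The members differed in how far the E518K libraries stood from KO towards wt. For the 6 members whose KO and wt levels differed at least 2-fold and were called, the place of E518K between KO (0%) and wt (100%) on the log2 scale was 81.4% for Igfbp3, 63.5% for Igfbp2, 47.8% for Igfbp5, 34.7% for Igfbp4, 16.3% for Insr and -14.0% for Igf2. Thus Igf2 and Insr in E518K stood at or near the KO level, while Igfbp3 stood near the wt level. Over all 3560 genes that met the same condition (21.6% of those tested) the median place was 56.1%, with quartiles of 36.9% and 75.9%.

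To set levels of different genes side by side, CPM was divided by exonic length, although the reads were counted over whole gene spans with introns. In wt the order was Igfbp2 (512 CPM per kb of exons), Igf2r (11.5), Igfbp4 (5.19), Igf1r (2.10), Igfbp3 (1.99), Insr (1.06), Igf2 (0.378), Igfbp5 (0.273), Irs1 (0.186) and Igf1 (0.0192). Neighbours whose libraries overlapped were Igf1r with Igfbp3 and Igfbp5 with Irs1. In KO, Igfbp3 (6.73 CPM per kb) came next after Igfbp2 (30.3) and Igf2r (9.28), and Igfbp4 (0.173) had dropped behind Insr (0.394) to overlap Igf2 (0.142). In E518K, Igfbp2 (182 CPM per kb) and Igf2r (5.05) again led, followed by Igfbp3 (2.50), Igf1r (1.48) and Igfbp4 (0.563). The deposited TPM values, which use the whole span as length, placed Igfbp3 first in KO (mean 18.4 TPM, against 13.7 for Igfbp2).

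**Figure D3:**
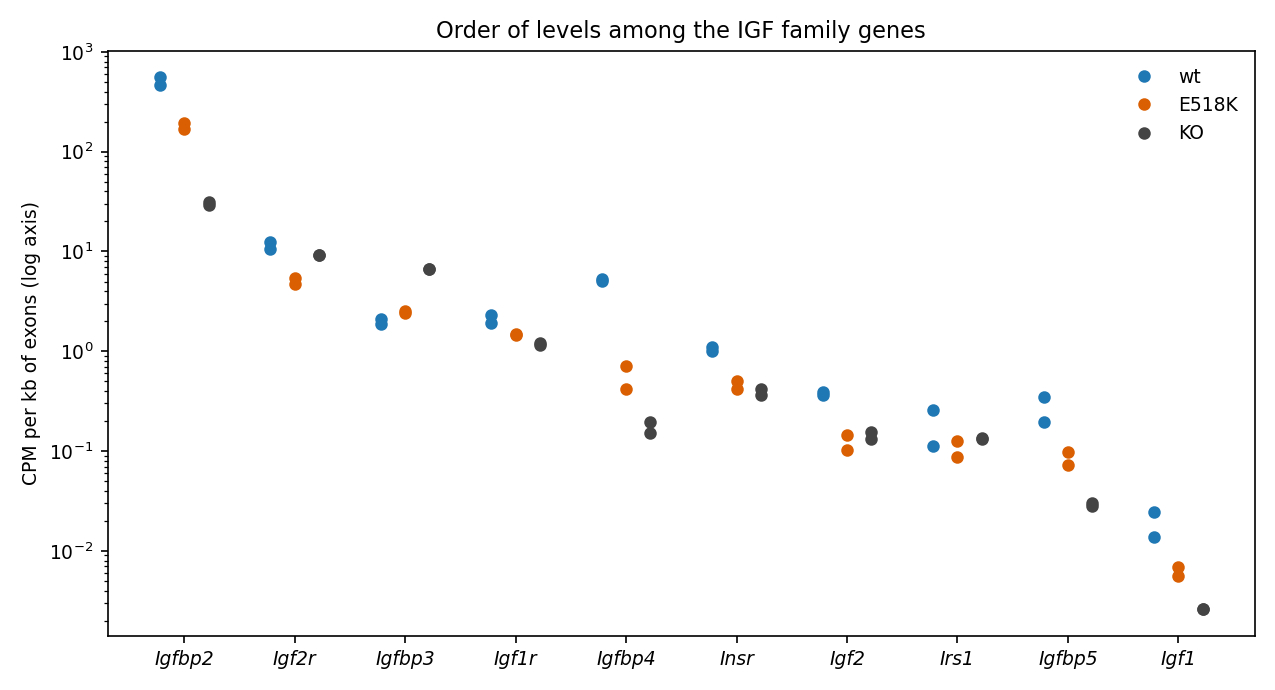
Level of each gene per kb of exons in each library, on a log axis, with genes ordered by their median over the 6 libraries (points are single libraries). Igfbp2 leads in every group, and Igfbp4 lies above Igf1r and Insr in wt and below both in KO.

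The promoters of the 3 binding proteins with the most reads show the sequence around the starts of genes that went in opposite directions: Igfbp2 and Igfbp4 were lowest in KO and Igfbp3 highest. Each line gives 300 bases from RefSeq (GRCm38.p6); most of each window lies before the annotated start. Capitals mark CACGTG (the E-box) or TATAAA. The windows lie at chr1:72824230-72824529 on the plus strand, chr11:99040994-99041293 on the plus strand and chr11:7213874-7214173 on the minus strand.
Igfbp2: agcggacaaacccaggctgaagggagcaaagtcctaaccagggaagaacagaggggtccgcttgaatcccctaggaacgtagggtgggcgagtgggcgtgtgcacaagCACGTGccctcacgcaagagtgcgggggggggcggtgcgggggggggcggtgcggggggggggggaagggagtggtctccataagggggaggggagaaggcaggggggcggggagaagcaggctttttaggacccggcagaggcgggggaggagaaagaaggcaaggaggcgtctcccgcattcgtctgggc
Igfbp4: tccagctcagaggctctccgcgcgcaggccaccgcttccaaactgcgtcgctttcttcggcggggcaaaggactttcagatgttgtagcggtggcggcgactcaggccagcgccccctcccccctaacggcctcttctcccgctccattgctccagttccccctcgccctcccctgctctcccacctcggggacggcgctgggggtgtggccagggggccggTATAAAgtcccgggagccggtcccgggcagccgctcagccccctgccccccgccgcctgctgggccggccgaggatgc
Igfbp3: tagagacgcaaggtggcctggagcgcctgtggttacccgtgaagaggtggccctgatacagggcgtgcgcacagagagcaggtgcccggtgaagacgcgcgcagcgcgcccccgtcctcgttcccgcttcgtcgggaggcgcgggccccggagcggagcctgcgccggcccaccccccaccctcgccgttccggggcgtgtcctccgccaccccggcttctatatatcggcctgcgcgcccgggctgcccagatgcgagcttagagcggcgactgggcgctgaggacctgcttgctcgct
Searched on both strands, this Igfbp2 window held CACGTG at 1 place and the G/C box GGGCGG at 3. A second Igfbp2 window of the table, at chr1:72825137-72825436, held neither motif. The Igfbp4 window held TATAAA at 1 place. The Igfbp3 window held none of these 3 motifs. Over the 32851 promoter windows of the table, 7.20% held CACGTG, 35.7% GGGCGG and 13.6% TATAAA. The E-box was also found in the windows of Igf2r, at 2 places, and of Irs1, at 1. The shorter core ACGTG, which lies within CACGTG and was in 19.6% of all windows, was also found in windows of Igf2r, Irs1 and Igf2. CG dinucleotides numbered 18 in the Igfbp2 window, 27 in that of Igfbp4 and 37 in that of Igfbp3, against a median of 7 over all windows. A match is a string of letters and was not tested as a site.

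Since DGCR8 and Drosha cut primary microRNA transcripts, matches to microRNA seeds in the 3′ UTRs of the members are shown. Other ways in which DGCR8 may act on mRNA were not examined. MicroRNA levels were not analysed here. The microRNAs below, known from mouse embryonic stem cells or from later stages, are mature sequences from RefSeq, grouped by seed (bases 2 to 8, in capitals).
miR-291a-3p: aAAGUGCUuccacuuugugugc
miR-294-3p: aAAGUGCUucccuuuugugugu
miR-295-3p: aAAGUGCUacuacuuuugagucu
miR-17-5p: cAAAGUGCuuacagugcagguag
miR-20a-5p: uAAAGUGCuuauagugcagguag
let-7a-5p: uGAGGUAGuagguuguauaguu
let-7g-5p: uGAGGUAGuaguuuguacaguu
The first 3 share 1 seed, as do the next pair and the last pair. The complement of the first seed, AGCACTT, was found in 16.7% of 14958 genes. The search took the longest annotated 3′ UTR among the protein-coding transcripts of each gene (median length 1120 bases). Which UTR form these cells use was not analysed. For the second seed the complement GCACTTT was found in 13.8% of these genes. For the let-7 seed the complement CTACCTC was found in 10.2%.

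Among the members shown here, Igf1r, Igf2r, Insr and Igfbp5 carried the let-7 match, and Igf1r and Igfbp4 carried 1 match each to the other families. The windows below are 24 bases of the 3′ UTR with the match in capitals.
Igf1r, miR-294-3p: tgtttcgatttAGCACTTcttacc
Igf1r, let-7a-5p: caaacatttatCTACCTCactctt
Igf1r, let-7a-5p: ccagagttcatCTACCTCtgggat
Igf2r, let-7a-5p: tgctccgtgccCTACCTCatctct
Insr, let-7a-5p: ctcagtacagtCTACCTCagtgtc
Igfbp4, miR-17-5p: agtgtcagcctGCACTTTgggact
Igfbp5, let-7a-5p: cccaggtcagcCTACCTCccccaa
These UTRs are long: 7267 bases in Igf1r, 4747 in Insr, 4445 in Igfbp5, 2813 in Igfbp4 and 1304 in Igf2r. No match to the 3 families was found in the UTRs of Igf2 (3050 bases), Irs1 (4525), Igfbp3 (1435) and Igfbp2 (312). The members with a match shown (Igf1r, Igf2r, Insr, Igfbp4 and Igfbp5) all had lower mean CPM in KO than in wt, as had Igf2, Irs1 and Igfbp2 without one. These matches are letters in the transcript and were not tested as sites.

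The other genes of the pathway, a list of 51 that leaves out the members, were tested in the same fit. This list too was chosen with earlier results of these data known, so nothing is read from its counts. In KO against wt 32 of the 46 genes that passed the filter were called, 15 higher and 17 lower (69.6%, beside 57.2% of all genes). In E518K against wt 17 were called, 10 higher and 7 lower (37.0%, beside 23.7%), and in E518K against KO 25, of which 14 were higher and 11 lower (54.3%, beside 41.8%). The median log2 difference of the list was -0.10, -0.09 and 0.12, beside -0.03, -0.02 and -0.02 over all genes.

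The widest log2 differences of the list in KO against wt were those of Stc1, Stc2 and Pappa2, from the IGFBP proteases and their inhibitors. PAPP-A2 (Pappa2) and HTRA1 are proteases that cut IGF binding proteins, and the stanniocalcins Stc1 and Stc2 inhibit the pappalysins. All 4 were called in KO against wt, beside 57.2% of all genes, with the proteases higher and the inhibitors lower. Of all genes tested, 27.4% were called higher there and 29.7% lower. Stc2 stood at 20.4 and 33.3 CPM in wt 12 and wt 16, 7.97 and 7.54 in E518K 8 and E518K 15 and 2.48 and 2.28 in KO 1 and KO 3. It fell in KO against wt (log2 -3.50 ± 0.24, edgeR adjusted p = 6.88e-05) and in E518K against wt (-1.79 ± 0.22, edgeR adjusted p = 0.00339). Stc1 had 83 and 66 counts in wt, 20 and 26 in E518K and 4 and 3 in KO. Its edgeR adjusted p was 0.000326 in KO against wt (log2 -4.44 ± 0.48) and 0.0212 in E518K against wt (-1.68 ± 0.38).

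Pappa2 had 11 and 16 counts in wt 12 and wt 16, 62 and 78 in E518K 8 and E518K 15 and 80 and 120 in KO 1 and KO 3. It rose in KO against wt (log2 2.80 ± 0.39, edgeR adjusted p = 0.000965) and in E518K against wt (2.38 ± 0.40, edgeR adjusted p = 0.00784). Htra1 stood at 12.6 and 10.1 CPM in wt, 15.9 and 28.0 in E518K and 32.8 and 36.1 in KO. It rose in KO against wt (log2 1.60 ± 0.25, edgeR adjusted p = 0.00159) and in E518K against wt (0.95 ± 0.25, edgeR adjusted p = 0.0337). The call of Htra1 in E518K against wt was lost when any one of 5 libraries was left out, with a log2 difference of 0.50 without E518K 15. It was also lost without the filter on low counts (0.953) and with only the 4 libraries compared (0.963). With limma on log2(TPM + 1) and log2(TPM + 0.1) it was lost too (0.574 and 0.804). With the KO libraries summed, the calls of Htra1 and Stc1 there were lost (0.955 and -1.677). That of Stc1 was lost without either KO or either E518K library (edgeR adjusted p = 0.0544 to 0.116). Those of Stc2 and Pappa2 were lost without E518K 15 (edgeR adjusted p = 0.0570 and 0.0704). On the TPM scale, where low genes move little, Pappa2 was not called in E518K against wt (limma adjusted p = 0.233 on log2(TPM + 1) and 0.112 on log2(TPM + 0.1)). In KO against wt Pappa2 missed the threshold on log2(TPM + 1) alone (limma adjusted p = 0.0546). Pappa, the best-known protease of IGFBP4, had at most 4 counts in any library and was not tested.

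Against KO, the E518K libraries had more Stc2 (log2 1.70 ± 0.24, edgeR adjusted p = 0.00157) and more Stc1 (2.76 ± 0.51, edgeR adjusted p = 0.00471). The Htra1 difference from KO was -0.65 ± 0.24 and missed the threshold (edgeR adjusted p = 0.0701). Htra1 was called lower than KO by DESeq2 (log2 -0.65, DESeq2 adjusted p = 0.0176) and without E518K 15 (log2 -1.10, edgeR adjusted p = 0.0124).

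Among the 5 other IGF binding proteins, Igfbp1 had almost no reads and Igfbp6 5 to 12 counts a library. Igfbpl1, an IGFBP-like gene, rose in KO against wt from a mean of 7.01 to 12.9 CPM (log2 0.88 ± 0.12, edgeR adjusted p = 0.000824) and was lower in E518K than in KO (-0.50 ± 0.12, edgeR adjusted p = 0.0130). Without any single one of the KO or E518K libraries that second call was lost. Igfals, the acid-labile subunit of the circulating IGF complex, fell in KO from 7.17 to 4.09 CPM (log2 -0.81 ± 0.18, edgeR adjusted p = 0.00769), a call lost without KO 1 or KO 3 (edgeR adjusted p = 0.0669 and 0.0503). Igfbp7 had means of 1.25, 1.37 and 1.54 CPM in KO, wt and E518K, with an edgeR adjusted p of 0.656 in KO against wt.

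Of the 3 IGF2BP genes, whose proteins bind Igf2 and other mRNAs, Igf2bp3 fell in KO against wt from 168 to 63.3 CPM (log2 -1.41 ± 0.07, edgeR adjusted p = 2.08e-05). It was at 105 CPM in E518K, below wt (-0.68 ± 0.07, edgeR adjusted p = 0.00159) and above KO (0.73 ± 0.07, edgeR adjusted p = 0.000357). Igf2bp2 fell in KO from 209 to 132 CPM (log2 -0.66 ± 0.09, edgeR adjusted p = 0.000914) and was higher in E518K than in KO, at 187 CPM (0.50 ± 0.09, edgeR adjusted p = 0.00442). Igf2bp1 stood at 474, 464 and 499 CPM in KO, wt and E518K and was not called in KO against wt (log2 0.03 ± 0.07, edgeR adjusted p = 0.735), nor in either E518K comparison. Without wt 16 Igf2bp1 was called higher in E518K than in wt (log2 0.20, edgeR adjusted p = 0.0118), beside 0.11 with all libraries. Its KO minus wt value changed sign with upper-quartile scaling (-0.03).

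Downstream of the receptors, the PI3K, AKT, mTOR and FOXO list had 23 genes tested. In KO against wt 11 rose and 6 fell, in E518K against wt 7 rose and 2 fell, and in E518K against KO 5 rose and 9 fell. Called in all were 73.9%, 39.1% and 60.9% of the list, beside 57.2%, 23.7% and 41.8% of all genes tested. Akt2, the AKT kinase best known for insulin action, rose from 80.5 CPM in wt to 165 in KO (log2 1.03 ± 0.06, edgeR adjusted p = 3.46e-05) and 119 in E518K (0.56 ± 0.06, edgeR adjusted p = 0.00203). Pik3cb, which encodes a catalytic PI3K subunit, rose from 52.9 CPM to 122 in KO (log2 1.20 ± 0.07, edgeR adjusted p = 3.67e-05) and 75.4 in E518K (0.51 ± 0.07, edgeR adjusted p = 0.00427). Eif4ebp1, a translation repressor switched off by mTOR, fell from 399 CPM in wt to 196 in KO (log2 -1.02 ± 0.07, edgeR adjusted p = 6.06e-05). It was higher in E518K than in KO, at 349 CPM (0.83 ± 0.07, edgeR adjusted p = 0.000298). Rictor, a part of the mTOR complex that acts on AKT, stood at 66.9 CPM in KO, 29.6 in wt and 30.3 in E518K, and E518K was lower than KO (log2 -1.14 ± 0.12, edgeR adjusted p = 0.000647). Foxo3, a transcription factor restrained by AKT, was lowest in E518K, at 77.1 CPM against 112 in wt (log2 -0.54 ± 0.06, edgeR adjusted p = 0.00259).

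**Figure D4:**
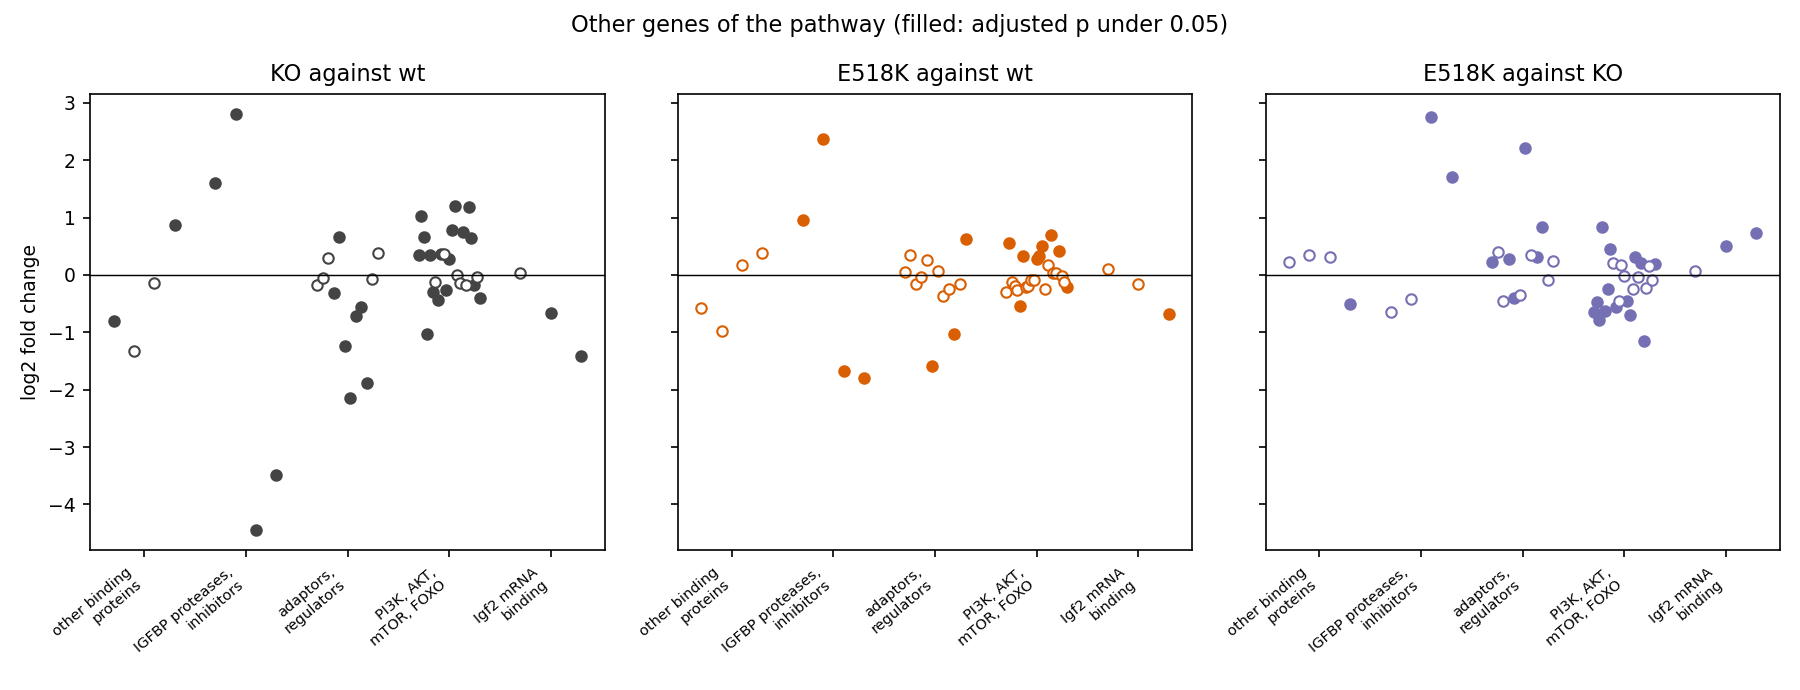
Log2 differences of the 46 other pathway genes tested, by sub-list, in each comparison (each point is 1 gene; filled points were called at an adjusted p under 0.05). Stc1 and Stc2 lie lowest and Pappa2 highest among the genes in KO against wt.

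Of 12 receptor adaptors and regulators, 1 rose and 6 fell in KO against wt, 1 rose and 2 fell in E518K against wt, and 5 rose and 1 fell in E518K against KO. Called in all were 58.3%, 25% and 50% of these 12, close to or a little above the 57.2%, 23.7% and 41.8% of all genes tested. Irs2, the second main adaptor of the family, was the one that rose in KO, from 19.9 to 31.7 CPM (log2 0.67 ± 0.08, edgeR adjusted p = 0.000530). Irs2 was lower in E518K than in KO (-0.40 ± 0.08, edgeR adjusted p = 0.00709), a call lost without KO 1 or KO 3 (edgeR adjusted p = 0.0928 and 0.0787). Sh2b2, an adaptor of the insulin receptor, fell in KO from 1.76 to 0.479 CPM (log2 -1.88 ± 0.28, edgeR adjusted p = 0.00121), and Sh2b1 from 72.0 to 48.9 CPM (-0.56 ± 0.08, edgeR adjusted p = 0.00119). In E518K against wt, Socs2, an inhibitor of cytokine and growth hormone signalling, rose from 33.0 to 51.3 CPM (log2 0.64 ± 0.14, edgeR adjusted p = 0.0219). Sh2b2 fell (-1.03 ± 0.27, edgeR adjusted p = 0.0322), as did Irs3 (-1.60 ± 0.45, edgeR adjusted p = 0.0403). The calls of Socs2, Sh2b2 and Irs3 were each lost without E518K 8 (edgeR adjusted p = 0.0841, 0.154 and 0.184) or without E518K 15 (0.144, 0.138 and 0.110, as edgeR adjusted p). Those of Sh2b2 and Irs3 were also lost without KO 1 or KO 3, and that of Irs3 without wt 12. The calls of Sh2b2 and Irs3 were lost as well with only the 4 libraries compared (log2 -1.02 and -1.585) and with KO summed (-1.029 and -1.595). That of Socs2 was lost with limma on log2(TPM + 1) and log2(TPM + 0.1) (0.524 and 0.583). Against KO, E518K had more Irs4 (log2 2.22 ± 0.52, edgeR adjusted p = 0.0128) and slightly more Grb2 (0.28 ± 0.07, edgeR adjusted p = 0.0145). Both calls were lost without KO 1, KO 3 or E518K 8 (edgeR adjusted p = 0.0543 to 0.132).

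Of the genes near the imprinted members, those on the list and given here had few reads. Near Igf2, Th had 22 and 52 counts in wt, 12 and 6 in E518K and 4 and 3 in KO, and Ins2 had 0 to 3. Near Igf2r, Mas1 had 66 and 54 counts in KO 1 and KO 3, 19 and 8 in wt 12 and wt 16 and 14 and 15 in E518K 8 and E518K 15. Th was lower in KO than in wt (log2 -3.43 ± 0.71, edgeR adjusted p = 0.00538), and Mas1 was higher there (2.06 ± 0.49, edgeR adjusted p = 0.00979), a call lost without KO 1 (edgeR adjusted p = 0.0733). Slc22a2 and Slc22a3 had at most 2 counts in any library. H19 was not analysed here.

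For the 4 members with enough reads and the widest range over the libraries, the genes with the nearest profile were sought among 11806 genes, by the Euclidean distance of mean-centred log2 CPM over 6 libraries. The libraries make up only 3 groups, so a close match says little beyond the group means. Nearest to Igfbp4 were Gldc (distance 1.23), A2m (1.30) and Ybx2 (1.44), none of them close. Gldc, the glycine decarboxylase, averaged 8.68 CPM in KO, 124 in wt and 19.8 in E518K. Nearest to Igfbp2 were Anxa6 (0.253), Chac1 (0.333) and Dtx1 (0.391). Anxa6, an annexin, averaged 4.98, 89.9 and 33.4 CPM in KO, wt and E518K. Nearest to Igfbp3 were Irgm2 (0.128), Galnt7 (0.139) and Hp1bp3 (0.155), and nearest to Insr were Kank1 (0.165) and Pctp (0.204).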

How the data were processed

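Counts per gene and TPM values were deposited by the authors for the 6 libraries. The submitters' processing notes name STAR, bedtools and the build GRCm38.p6; the labels do not state their settings. The deposited TPM values match the deposited counts divided by the whole gene span with introns (within 5% for 98.6% of 13429 genes) and not by exonic length (3.39%). Outer genes held at least the count of nested opposite-strand genes in 99.1% of 331 pairs. This would be seen if strand was ignored in the counting. No control pairs were set beside them, so the check does not settle the point.

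The counts were fitted with edgeR 4.0.16 in R 4.3.3 (TMM, filterByExpr with a minimum count of 10, robust quasi-likelihood, 6 libraries in 1 fit, group only, 3 residual degrees of freedom). P-values were adjusted by Benjamini-Hochberg over 16498 genes, with a threshold of 0.05. CPM used TMM factors. Each SE was taken as the absolute log2 difference divided by the square root of its quasi-likelihood F value. The script was tested on data simulated with the same spread in all groups. The libraries here had unequal spreads (20.6% in wt, 9.19% in E518K and 2.6% in KO), so that test does not bear on their effect on the calls. With 2 libraries a group, and KO libraries of 1 clone number, p-values measure only the spread between these libraries, which may be technical. The depth of 73642784 to 75121971 counts leaves genes under about 10 counts without a test.

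The members and lists were chosen with earlier results of these data known. Named were all members, up to 3 called genes of each pathway sub-list per comparison by smallest p (all genes of sub-lists of up to 5), genes beside Igf2 and Igf2r, the 3 nearest profiles of 4 members, and markers above 10 CPM that differed at least 2-fold between groups. A few items that this rule names are not reported here. Alternatives were other size factors, filters, DESeq2 1.42.0, limma 3.58.1 on log2(TPM + 1) and log2(TPM + 0.1), fits of 4 libraries, KO summed, genes without overlap, and each library left out. Positions and UTRs came from GENCODE M21.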

Additional observations from a re-analysis of the deposited data

How the results depend on the processing

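The count of other pathway genes called was 32 in KO against wt, 17 in E518K against wt and 25 in E518K against KO. With the KO libraries summed into 1 it was 21, 8 and 13, and with only the 4 libraries compared it was 9 in E518K against wt. With each library left out in turn it ranged from 20 (without KO 3) to 35 in KO against wt, from 5 (without E518K 15) to 29 (without wt 16) in E518K against wt, and from 12 (without KO 3) to 34 in E518K against KO. It was 8 in E518K against wt without KO 1 or KO 3 and 9 without E518K 8, and in E518K against KO 13 without KO 1 and 15 without E518K 8. A library left alone in its group was assumed to vary like the others. The other settings stayed within 1.5 times. Over all genes, 3917 were called in E518K against wt, but 1999 with only the 4 libraries, 1909 with KO summed, 1908 and 1907 without KO 1 and KO 3, 1650 and 644 without E518K 8 and E518K 15, and 6987 without wt 16. In KO against wt 9429 were called, but 6163 with KO summed, and 6196 and 6084 without KO 1 and KO 3. In E518K against KO 6902 were called, but 3267 with KO summed, 3285 and 3306 without KO 1 and KO 3, and 4042 without E518K 8. Of the 3917, 47.5% were higher, against 37.5% with upper-quartile factors, 26.8% with limma on log2(TPM + 1) and 28.3% on log2(TPM + 0.1). It was 60.1% without E518K 8 and 60.2% without E518K 15. In E518K against KO the share was 52.7%, against 40.7% and 42.3% with limma on the same scales.

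Of the members' 143 alternative values in each comparison, 134, 130 and 126 kept direction and side of the threshold in KO against wt, E518K against wt and E518K against KO. Log2 differences that changed sign were those of Irs1 in KO against wt (-0.952 without wt 12 to 0.263 without wt 16), Igf2 in E518K against KO (-0.462 without E518K 8 to 0.05 without E518K 15) and Mas1 in E518K against wt (-0.387 without wt 16 to 0.88 without wt 12). Igf2bp1 did so in KO against wt (-0.026 with upper-quartile factors, -0.061 without wt 12 to 0.122 without wt 16) and in E518K against KO (-0.032 with limma on log2(TPM + 1) and on log2(TPM + 0.1)). The cause was not tested. With the KO libraries summed, the call of Igfals in KO against wt was lost too (log2 -0.808). So were those of Igfbpl1, Irs2, Irs4 and Grb2 in E518K against KO (-0.5, -0.4, 2.22 and 0.278). With limma on log2(TPM + 1), Irs4 and Grb2 were not called there either (0.311 and 0.155). No paired analysis was possible because the groups share no replicate numbers.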
